A study of Mus musculus with 4 samples.

Results

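The SLAM family genes are immune receptors of the immunoglobulin superfamily, most of which lie side by side on mouse chromosome 1. The 8 genes described here are Slamf1, Cd48, Slamf6, Cd84, Slamf7, Ly9, Slamf8 and Slamf9, taken by symbol out of 55426 genes in the deposited tables. They were selected on the measured expression in these libraries, chosen by the joint decrease of the neighbours Cd48 and Cd84, so every fold change of these 8 genes is given as a description and was not tested. Poly(A) RNA was sequenced from mouse lineage-negative bone marrow stem and progenitor cells, transformed with an MLL fusion and kept in serum-containing medium. The 2 MLL-ENL dYEATS libraries came from cells whose fusion keeps only ENL residues 372 to 559 and so lacks the YEATS domain, a reader of acylated histone lysines. The 2 MLL-ENL libraries came from cells with the MLL-ENL fusion, for which the labels name no residues. Both groups therefore carry an MLL fusion, no group is without one, and the labels name no mouse strain, age, promoter of the fusion or number of lines. By the series design each pair of libraries is a technical replicate, so the spread between them, and any p-value resting on it, may be technical, and genotype and line cannot be told apart.

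SLAM receptors sit on the surface of blood cells and mostly bind a copy of themselves on a neighbouring cell. Many of them, though not all, have tails with tyrosine motifs that recruit the small adapters SAP (Sh2d1a) and EAT-2 (Sh2d1b1 and Sh2d1b2). The adapters pass the signal to kinases and lipid enzymes, whereas without adapters the same motifs can recruit phosphatases. Cd48 has no tail of its own, is held in the membrane by a lipid anchor, and binds Cd244 and, in rodents, Cd2. In mouse bone marrow, blood stem cells are sorted by the presence of Slamf1 (CD150) and the absence of Cd48, and Cd48 marks more committed progenitors.

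Total expected counts were 27812855 to 28814798 per library. Libraries of a pair differed with a chi-square per degree of freedom of 1.99 for MLL-ENL dYEATS and 89.8 for MLL-ENL, both above sampling noise. A fit that leaves out MLL-ENL replicate 1 or 2 calls 57.2% or 68.6% of all tested genes. Leaving out MLL-ENL dYEATS replicate 1 or 2 calls 10.9% or 10.8%, against 16.9% with all libraries (7.04% higher and 9.84% lower in MLL-ENL dYEATS). Of the markers that go with the labelled cell type, Kit was measured in all libraries, but Cd34, Ly6a and Flt3 were each under 0.25 CPM (counts scaled to library size) in every library. All 6 granulocyte precursor markers passed the filter on low counts. Their summed level was 3450 and 3470 CPM in MLL-ENL dYEATS, against 5909 to 7102 CPM in MLL-ENL, and 4 of the 6 were called lower. The largest part of this sum was Elane (1772 and 1816 CPM in MLL-ENL dYEATS, against 3726 and 3104 CPM in MLL-ENL). Cebpe went the other way (60.3 and 58.1 CPM, against 50.9 and 37.6 CPM in MLL-ENL) and was not called (edgeR adjusted p = 0.155). Monocyte markers summed to 817 and 837 CPM in MLL-ENL dYEATS, against 1180 and 1136 CPM in MLL-ENL, with 2 of 5 tested called higher and 1 lower. Most of this sum was Ly6c2, the member called lower (660 and 693 CPM in MLL-ENL dYEATS, against 1086 and 1019 CPM in MLL-ENL). Ccr2 (125 and 115 CPM, against 65.5 and 86.2 CPM) and Csf1r (9.53 and 8.89 CPM, against 3.92 and 5.54 CPM) were called higher (edgeR adjusted p = 0.0497 and 0.0346). Dendritic cell markers summed to 2.45 and 2.27 CPM in MLL-ENL dYEATS, against 4.55 and 3.63 CPM in MLL-ENL, and the 2 tested members moved in opposite directions. Itgax rose to 66 and 53 counts in MLL-ENL dYEATS, against 1 and 2 counts in MLL-ENL (edgeR adjusted p = 0.00169). H2-Ab1 fell to 2 and 0 counts in MLL-ENL dYEATS, against 118 and 97 counts in MLL-ENL (edgeR adjusted p = 0.00182). Itgax and H2-Ab1 each passed the filter on low counts only through the group where they were high. Markers of mast cells and basophils summed to 4.66 and 6.14 CPM in MLL-ENL dYEATS, against 8.55 and 7.21 CPM in MLL-ENL. Erythroid and megakaryocyte markers summed to at most 1.29 and 1.60 CPM in MLL-ENL dYEATS and at most 1.53 and 2.54 CPM in MLL-ENL. None of 10 T and NK cell markers and none of 6 B cell markers passed the filter. Their summed levels were at most 0.102 and 0.105 CPM in MLL-ENL dYEATS and at most 0.0711 and 0.0746 CPM in MLL-ENL. The T cell markers Cd3e, Cd3g, Trac, Cd8a and Cd4 had no counts, and the B cell markers Ms4a1 and Pax5 had none. Whether the shift in granulocyte or other markers plays a part in the SLAM values was not tested. In bulk RNA, fewer cells of a type and less RNA per cell cannot be told apart.

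The 8 genes of the list split evenly into measured and silent members. Cd48, Cd84, Ly9 and Slamf9 passed the filter on low counts, and Slamf1, Slamf6, Slamf7 and Slamf8 had 0 counts in all 4 libraries. At these depths a count of 0 allows up to 3 counts, or 0.102 to 0.105 CPM per MLL-ENL dYEATS library and 0.107 to 0.112 CPM per MLL-ENL library, by counting error alone. Slamf1, the stem cell marker CD150, was thus not detectable at this depth in either group. Slamf6 and Slamf7, known mainly from lymphocytes, plasma cells and activated macrophages, were likewise not detectable, nor was Slamf8, known from macrophages. All 4 measured genes of the list were lower in both MLL-ENL dYEATS libraries than in both MLL-ENL libraries. Of all 13245 genes that passed the filter, 32.2% were separated in the same way, and since the difference chose the genes nothing is read from the comparison. Cd244a, a related receptor in the same cluster, is not on the list. It was also measured, and its groups overlapped (6.20 and 6.14 CPM in MLL-ENL dYEATS, against 6.16 and 8.17 CPM in MLL-ENL).

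**Figure D1:**
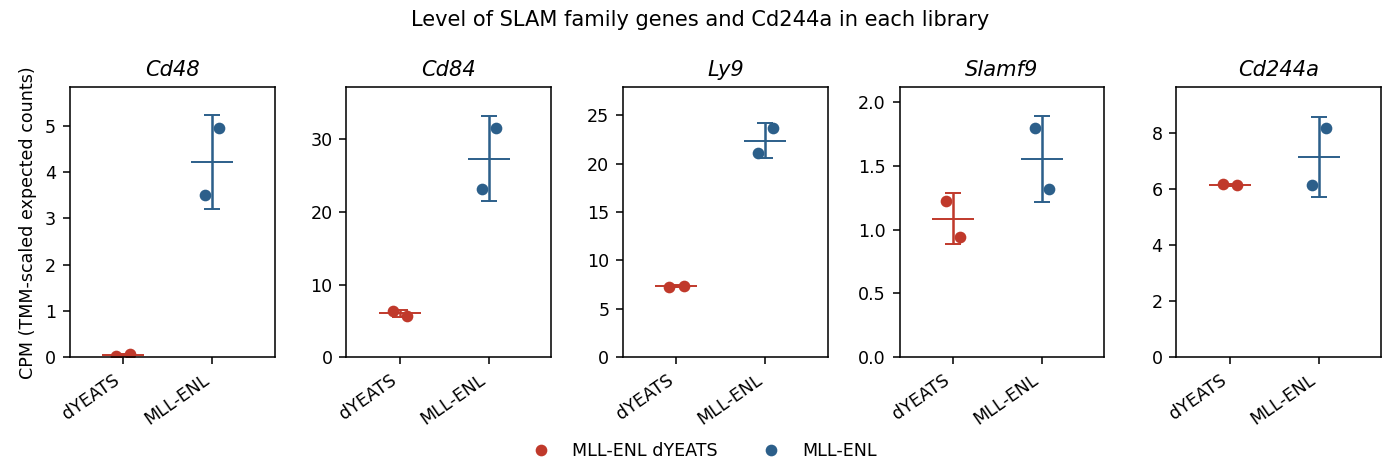
Level in CPM (linear axes from 0, own scale per gene) of the 4 measured SLAM family genes and of Cd244a in each library, with MLL-ENL dYEATS left of MLL-ENL. Points are libraries, horizontal lines are means and bars are SD over 2 libraries; Cd48, Cd84, Ly9 and Slamf9 are lower in both MLL-ENL dYEATS libraries, and the groups overlap for Cd244a.

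Cd48 (ENSMUSG00000015355), the lipid-anchored ligand of Cd244, was barely detected in the mutant libraries. It had 1 and 2 counts in MLL-ENL dYEATS (0.0340 and 0.0698 CPM), against 94 and 139 counts in MLL-ENL (3.51 and 4.94 CPM). Both mutant values are below the limit that a count of 0 allows, and Cd48 passed the filter only through the MLL-ENL libraries. Means were 0.0519 ± 0.0253 CPM in MLL-ENL dYEATS and 4.22 ± 1.01 CPM in MLL-ENL (SD, n = 2 each). The summed counts gave a level 82.1-fold lower in MLL-ENL dYEATS, with a 95% interval of counting error of 27.7 to 401 (exact binomial).

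Cd84 (ENSMUSG00000038147), a self-binding receptor of myeloid cells, platelets and B cells, was also lower but stayed well measured. It lay at 6.40 and 5.68 CPM in MLL-ENL dYEATS, against 23.2 and 31.5 CPM in MLL-ENL. Both mutant libraries lay far below the lower MLL-ENL library, without overlap. Means were 6.04 ± 0.505 CPM in MLL-ENL dYEATS and 27.3 ± 5.85 CPM in MLL-ENL (SD, n = 2 each), with a log2 fold change of -2.18 ± 0.19 (SE), or 4.52-fold lower. Ly9 (CD229, ENSMUSG00000004707), a self-binding receptor best known from lymphocytes, followed with 7.25 and 7.39 CPM in MLL-ENL dYEATS, against 21.1 and 23.6 CPM in MLL-ENL. The mutant libraries nearly coincided, well below both MLL-ENL libraries. Means were 7.32 ± 0.101 CPM in MLL-ENL dYEATS and 22.4 ± 1.78 CPM in MLL-ENL (SD, n = 2 each), and the log2 fold change was -1.61 ± 0.13 (SE), or 3.06-fold lower.

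Slamf9 (ENSMUSG00000026548), a short-tailed member known from myeloid cells, was low in every library. It had 36 and 27 counts in MLL-ENL dYEATS (1.23 and 0.942 CPM), against 48 and 37 counts in MLL-ENL (1.79 and 1.32 CPM). The higher mutant library and the lower MLL-ENL library nearly met. Means were 1.08 ± 0.201 CPM in MLL-ENL dYEATS and 1.55 ± 0.337 CPM in MLL-ENL (SD, n = 2 each), and the counts give 1.43-fold lower with a 95% interval of counting error of 1.02 to 2.01. The log2 fold change was -0.51 ± 0.29 (SE), and leaving out MLL-ENL replicate 1 gave -0.28 whereas leaving out replicate 2 gave -0.72. Of the 4 measured members Slamf9 thus had the smallest change.

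The MLL-ENL libraries differed from each other within the family too. Cd48, Cd84 and Ly9 were higher in MLL-ENL replicate 2 than in replicate 1, by 0.44, 0.43 and 0.16 on the log2 scale of CPM plus 0.5, and Slamf9 was lower by 0.34. These values lie between the 5th and 95th percentiles of all tested genes for this pair (-0.57 and 0.64). Leaving out any library kept the log2 fold change of Cd84 between -2.38 and -1.94 and that of Ly9 between -1.69 and -1.53.

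The 6 receptors other than Slamf8 and Slamf9 form a cluster with Cd244a on chromosome 1 (GRCm38, GENCODE M21), and from Ly9 onwards measured and silent genes alternate along it. From the start of Cd244a to the end of Slamf6 the cluster spans 394 kb. In order of their start sites it holds Cd244a (171559193 to 171609746), Ly9 (171588624 to 171607410, minus strand), Slamf7 (171632403 to 171653035, minus strand), Cd48 (171682009 to 171705258), Slamf1 (171767127 to 171801184), Cd84 (171839697 to 171890718) and Slamf6 (171917515 to 171953170). Cd48 and Cd84 start 157.7 kb apart with silent Slamf1 between them, and silent Slamf7 lies between Ly9 and Cd48. Slamf9 (172475358 to 172478575) starts 557.8 kb past the start of Slamf6, and Slamf8 (172581758 to 172590568, minus strand) lies beyond it. The minus-strand gene Ly9 lies inside the body of Cd244a on the plus strand, but their annotated exons share 0 bases, and no exon of Cd48, Cd84 or Slamf9 overlaps another annotated gene.

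The start regions of Cd48 and Cd84, the pair that was seen to be lower together, are shown with that of Slamf1, the silent gene between them. Each window holds 250 bases before and 50 bases after the gene's start, 5′ to 3′ on the gene's own strand (RefSeq, GRCm38.p6). Capitals mark matches on either strand to a RUNX motif (TGTGGT) or an ETS motif (CCGGAA).
Cd48 (chr1:171681742-171682041, plus strand): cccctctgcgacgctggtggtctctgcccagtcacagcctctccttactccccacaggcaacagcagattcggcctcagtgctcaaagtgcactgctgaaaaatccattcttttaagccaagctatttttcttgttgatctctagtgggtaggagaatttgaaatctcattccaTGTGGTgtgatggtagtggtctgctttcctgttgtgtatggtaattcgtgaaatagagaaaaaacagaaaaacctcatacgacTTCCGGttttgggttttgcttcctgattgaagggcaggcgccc
Slamf1 (chr1:171766882-171767181, plus strand): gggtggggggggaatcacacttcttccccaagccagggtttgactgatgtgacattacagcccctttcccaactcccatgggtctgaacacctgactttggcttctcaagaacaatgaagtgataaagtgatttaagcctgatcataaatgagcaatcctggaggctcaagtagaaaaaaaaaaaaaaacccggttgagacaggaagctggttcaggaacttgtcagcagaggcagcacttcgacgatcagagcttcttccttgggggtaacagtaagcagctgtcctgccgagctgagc
Cd84 (chr1:171839447-171839746, plus strand): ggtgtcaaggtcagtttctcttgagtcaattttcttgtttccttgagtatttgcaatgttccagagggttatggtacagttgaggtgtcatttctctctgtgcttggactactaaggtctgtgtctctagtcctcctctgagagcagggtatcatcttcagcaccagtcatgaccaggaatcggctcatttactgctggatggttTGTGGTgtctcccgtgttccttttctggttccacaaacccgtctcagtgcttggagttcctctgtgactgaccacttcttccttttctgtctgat
Cd48 and Cd84 each held 1 RUNX match, starting 76 and 45 bases before the RefSeq start, and Slamf1 held none. Cd48 also held 1 ETS match on the opposite strand, 8 bases past its RefSeq start. This ETS match lies before the GENCODE start of Cd48 (171682009). RefSeq and GENCODE also differ for Slamf6 and Slamf7, whose GENCODE starts lie outside their windows. Among the other members (7 of 8 had a window) neither motif was found in Slamf6, Slamf7, Slamf8 or Slamf9. Ly9, which was also lower in MLL-ENL dYEATS, had no window and was not searched. Of 32817 windows of the same length, 16.8% held the RUNX letters and 14.9% the ETS letters, so matches are common. Of the 7 members, only Slamf9 held the letters GAGGAAGT, a PU.1-type motif present in 3.20% of windows. The E-box letters CACGTG, in 7.15% of windows, stood in Slamf8 and Slamf9. The C/EBP letters TTGCNNAA were absent from all 7 and stood in 10.8% of windows. The letters AGATAA, bound by GATA factors, and TATAAA were also absent from all 7, and stood in 11.2% and 13.6% of windows. Both strands were searched and no motif's letters overlapped another's in Cd48 or Cd84. The motifs were chosen with these sequences in view, and a match is a description of letters, not of binding. CpG pairs numbered 7 in Cd48, 3 in Cd84 and 4 in Slamf1, against a median of 7 over all windows.

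**Figure D2:**
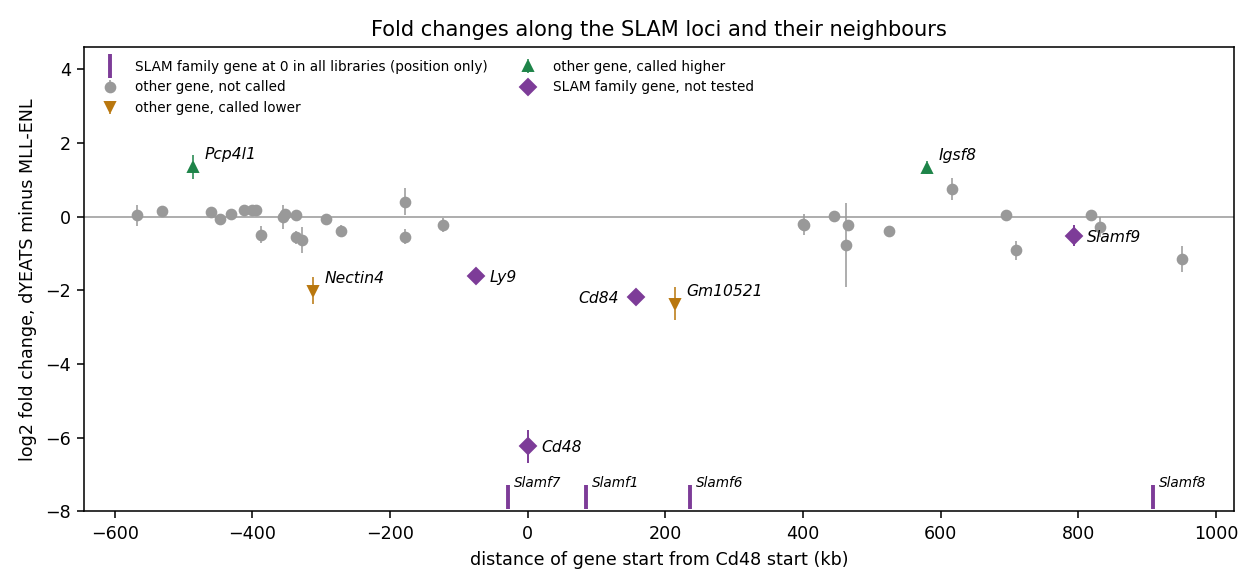
Log2 fold change (MLL-ENL dYEATS minus MLL-ENL; bars are SE) of each gene past the filter within 500 kb of a SLAM family gene, against the distance of its start from the Cd48 start in kb. Diamonds are the SLAM family genes, with Cd48 lowest and Cd84 and Ly9 next; triangles are other genes called by the test, grey points are genes not called, and ticks mark the positions of the 4 SLAM genes at 0, which have no fold change.

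Genes that lie near the receptors did not share a direction. Of 88 other genes within 500 kb of a SLAM family gene 35 were tested, and 2 were higher and 2 lower (edgeR's quasi-likelihood test, Benjamini-Hochberg adjusted p under 0.05). This is 11.4% of them, beside 16.9% of all tested genes, and their median log2 fold change was -0.06, beside -0.01 over all genes. Both genes called lower, Nectin4 and Gm10521, passed the filter on low counts only through the MLL-ENL libraries. With a filter of at least 5 CPM in 2 libraries 23 of these neighbours were tested, and 1 was called higher and 0 lower. Cd244a, which encodes the Cd48 receptor 2B4 and lies at the edge of the cluster, had 6.20 and 6.14 CPM in MLL-ENL dYEATS, against 6.16 and 8.17 CPM in MLL-ENL. These groups overlapped, and the log2 fold change of -0.22 ± 0.19 (SE; edgeR adjusted p = 0.479) was 0.0021 without MLL-ENL replicate 2 and, as a call, -0.40 without MLL-ENL replicate 1 (adjusted p = 0.00327 by edgeR). Cd2, the other receptor of Cd48 in rodents, had no counts in any library.

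Between Cd84 and Slamf6 lies Gm10521, a predicted gene on the same strand that starts 4.95 kb past the annotated end of Cd84. It fell to 0.136 and 0.174 CPM in MLL-ENL dYEATS, against 0.634 and 0.995 CPM in MLL-ENL (log2 fold change -2.37 ± 0.45 SE, edgeR adjusted p = 0.023). These are few counts, at most 28 in a library. The nearest tested genes outside the main cluster were not called with all libraries. Alyref2, on the Ly9 side, had a log2 fold change of -0.55 (edgeR adjusted p = 0.128), which was -0.39 without MLL-ENL replicate 1 and -0.68 without replicate 2. Ncstn, a subunit of gamma-secretase on the Slamf6 side, had -0.21 (edgeR adjusted p = 0.634), and was called lower without MLL-ENL replicate 1 (-0.58) and higher without MLL-ENL replicate 2 (0.27).

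Between Slamf9 and Slamf8 lie 2 tested genes that were not called, Tagln2 (log2 fold change 0.04, edgeR adjusted p = 0.855), which encodes an actin-binding protein, and Gm37125 (-0.29, adjusted p = 0.509 by edgeR). On the outer sides of this pair the nearest tested genes were Gm37145 and the phosphatase gene Dusp23, with log2 fold changes of -0.92 and -1.15 (edgeR adjusted p = 0.0618 and 0.092). Gm37145 was at -0.75 without MLL-ENL replicate 1 and at -1.06 without MLL-ENL replicate 2. Dusp23 was at -0.58 without MLL-ENL replicate 1, at -1.56 without MLL-ENL replicate 2 and at -1.32 without MLL-ENL dYEATS replicate 2. With all libraries DESeq2 called Dusp23 lower (-1.15, adjusted p = 0.0155). Of the other called neighbours, Nectin4 and Pcp4l1 lie on the Ly9 side of the main cluster, and Igsf8 lies between Slamf6 and Slamf9. The adhesion gene Nectin4 fell to 0.272 and 0.209 CPM in MLL-ENL dYEATS, against 0.858 and 1.10 CPM in MLL-ENL (adjusted p = 0.0194 by edgeR and 0.0504 by DESeq2). Igsf8, an immunoglobulin superfamily partner of tetraspanins, rose to 84.6 and 81.4 CPM, against 37.8 and 28.1 CPM in MLL-ENL (log2 fold change 1.33 ± 0.17 SE, edgeR adjusted p = 0.00651). Pcp4l1 rose to 1.60 and 1.47 CPM, against 0.448 and 0.746 CPM in MLL-ENL (edgeR adjusted p = 0.0458), and this call was lost when either MLL-ENL dYEATS library was left out (adjusted p = 0.116 and 0.0622) and with DESeq2 (0.0969). The called neighbours thus moved in both directions, though those called lower passed the filter on low counts only through the MLL-ENL libraries. On the log2 scale of FPKM plus 1, limma did not call Gm10521 or Nectin4 (adjusted p = 0.0839 and 0.0781) and called Pcp4l1 (0.0404). With FPKM plus 0.1, limma called Gm10521 and Nectin4 (adjusted p = 0.0432 and 0.0417) and did not call Pcp4l1 (0.0627).

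**Figure D3:**
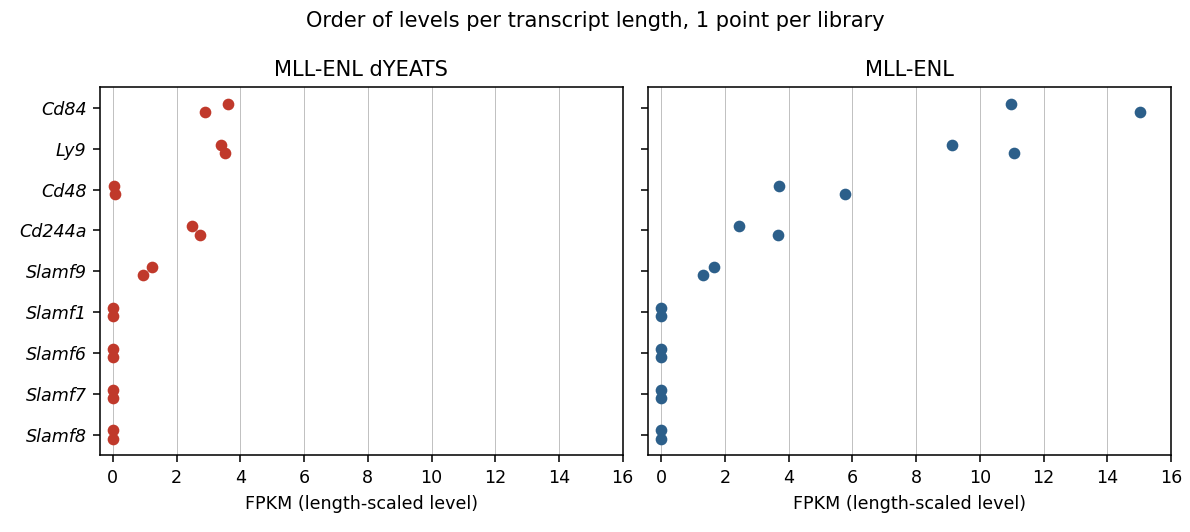
Level per length in FPKM of the SLAM family genes and Cd244a, with MLL-ENL dYEATS in the left panel and MLL-ENL in the right panel on the same linear axis; each point is a library. Cd84 and Ly9 are highest in both groups, while Cd48 lies above Cd244a in MLL-ENL and near 0 in MLL-ENL dYEATS.

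Levels of different genes were compared by the deposited FPKM (fragments scaled to gene length and library size). In the MLL-ENL dYEATS libraries Ly9 (3.41 and 3.53 FPKM) and Cd84 (3.63 and 2.90 FPKM) overlapped and were highest. They were followed by Cd244a (2.48 and 2.74 FPKM), Slamf9 (1.22 and 0.94 FPKM) and, last of the measured genes, Cd48 (0.05 and 0.08 FPKM). In the MLL-ENL libraries Cd84 (10.97 and 15.03 FPKM) and Ly9 (9.12 and 11.08 FPKM) overlapped at the top. Cd48 (3.69 and 5.77 FPKM) came next, its lower library only just above the higher library of Cd244a (2.45 and 3.68 FPKM), and Slamf9 (1.65 and 1.31 FPKM) was last. Thus Cd84 and Ly9 led in both groups and the place of Cd48 in the order differed.

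The adapters that connect SLAM receptors to signalling were scarce in both groups. Sh2d1a, which encodes SAP, had no counts in any library. Sh2d1b2 had 2 and 0 counts in MLL-ENL dYEATS and 1 and 0 in MLL-ENL. Sh2d1b1, the other EAT-2 gene, was the only adapter past the filter, with 1.23 and 1.12 CPM in MLL-ENL dYEATS, against 2.50 and 1.49 CPM in MLL-ENL. The groups did not overlap, but the difference was not called (log2 fold change -0.76 ± 0.32 SE, edgeR adjusted p = 0.172), and it was called without MLL-ENL replicate 2 (-1.09, adjusted p = 0.000966 by edgeR).

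**Figure D4:**
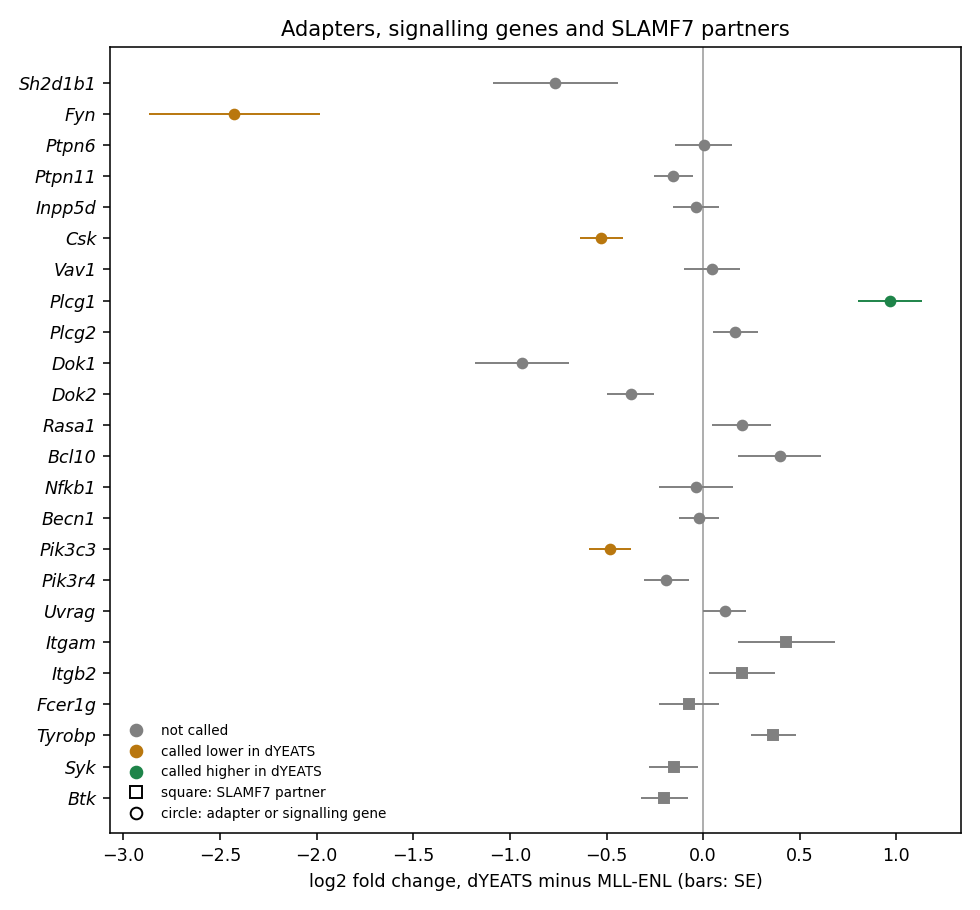
Log2 fold change (MLL-ENL dYEATS minus MLL-ENL; bars are SE) of the 18 tested adapter and signalling genes (circles) and the 6 tested SLAMF7 partners (squares). Fyn, Csk and Pik3c3 were called lower and Plcg1 higher, and the grey genes were not called.

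Of 21 SLAM adapter and signalling genes 18 were tested, and 1 was higher and 3 were lower, 22.2% of the list beside 16.9% of all tested genes. The list's median log2 fold change was -0.04, beside -0.01 over all genes. Fyn, the Src-family kinase that SAP brings to the receptors, fell to 0.102 and 0.244 CPM in MLL-ENL dYEATS, against 0.896 and 0.995 CPM in MLL-ENL. This is a log2 fold change of -2.43 ± 0.44 (SE, edgeR adjusted p = 0.0203) on 3 to 28 counts per library. It was -1.94 without MLL-ENL dYEATS replicate 1 and -3.16 without MLL-ENL dYEATS replicate 2. Fyn passed the filter on low counts only through the MLL-ENL libraries, where it was high. Plcg1, a phospholipase, rose to 21.1 and 21.0 CPM, against 12.2 and 9.28 CPM in MLL-ENL (0.97 ± 0.17 SE, edgeR adjusted p = 0.0166).

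Csk, which holds Src-family kinases in check, fell to 130.0 and 128 CPM in MLL-ENL dYEATS, against 196 and 176 CPM in MLL-ENL (-0.53 ± 0.11 SE, edgeR adjusted p = 0.0317). Pik3c3, the lipid kinase VPS34 that Slamf1 can engage, fell to 37.4 and 37.9 CPM, against 51.4 and 53.7 CPM in MLL-ENL (-0.48 ± 0.11 SE, edgeR adjusted p = 0.0372). Both calls were lost when MLL-ENL dYEATS replicate 1 or 2 was left out, with edgeR adjusted p of 0.464 and 0.485 for Csk and 0.568 and 0.513 for Pik3c3. The phosphatases that the receptors recruit without adapters were well measured and were not called. Ptpn6 (SHP-1) had 438 and 435 CPM in MLL-ENL dYEATS, against 490 and 381 CPM in MLL-ENL, and Inpp5d (SHIP-1) 186 and 174 CPM, against 173 and 197 CPM in MLL-ENL. For these 2 phosphatases the groups overlapped. Ptpn11 (SHP-2) had 185 and 181 CPM in MLL-ENL dYEATS, against 203 and 205 CPM in MLL-ENL, without overlap (log2 fold change -0.15 ± 0.10 SE, edgeR adjusted p = 0.342). On the log2 scale of FPKM plus 1, limma called Plcg1 and none of Fyn, Csk and Pik3c3 (adjusted p = 0.234, 0.0634 and 0.132).

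Slamf7 acts in phagocytosis by macrophages together with the integrin Itgam and Itgb2 and the signalling chains Fcer1g and Tyrobp. Slamf7 itself had no counts, yet all 6 listed partners were measured. None of the 6 was called by edgeR's quasi-likelihood test, which called 16.9% of all tested genes. An unadjusted p under 0.05 was found for 1 of the 6, beside 4410 of all 13245 tested genes. DESeq2 and limma-voom, which called 18.2% and 16.6% of all tested genes, also called none of the 6. Itgam lay at 388 and 382 CPM in MLL-ENL dYEATS, against 212 and 358 CPM in MLL-ENL, and Tyrobp at 107 and 114 CPM, against 90.3 and 81.8 CPM in MLL-ENL (edgeR adjusted p = 0.292 and 0.092). When MLL-ENL replicate 1 or 2 was left out, so that only MLL-ENL dYEATS libraries gave the spread, 4 and 5 of the 6 were called, beside 57.2% and 68.6% of all tested genes.

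Of 14 surface markers that are used with Slamf1 and Cd48 to sort bone marrow progenitors only 5 were tested, and 1 was higher and 3 were lower. This is 80.0% of the 5, beside 16.9% of all tested genes, in a list chosen with results of these data known. Their median log2 fold change was -0.64, beside -0.01 over all genes. Kit, the growth factor receptor of early progenitors, fell to 2.62 and 3.91 CPM in MLL-ENL dYEATS, against 50.4 and 66.9 CPM in MLL-ENL (-4.17 ± 0.26 SE, edgeR adjusted p = 0.000681). The Fc receptor gene Fcgr2b and the monocyte marker Ly6c2 had log2 fold changes of -0.75 and -0.64, and Csf1r, the macrophage growth factor receptor, one of 0.96 (edgeR adjusted p = 0.0432, 0.016 and 0.0346). These 3 calls ended without MLL-ENL dYEATS replicate 1 (adjusted p = 0.206, 0.402 and 0.119) or replicate 2 (0.161, 0.342 and 0.0594). Fcgr3, at 248 and 256 CPM in MLL-ENL dYEATS against 207 and 197 CPM in MLL-ENL, was not called (edgeR adjusted p = 0.0928) and was called higher without MLL-ENL replicate 1 (0.36) or 2 (0.29). On the log2 scale of FPKM plus 1, limma called none of Fcgr2b, Ly6c2 and Csf1r (adjusted p = 0.151, 0.0547 and 0.106).

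Likeness to Cd48 and Cd84 across the 4 libraries was measured as the distance between log2 profiles of CPM plus 0.5 that were centred on each gene's mean, among genes of a mean level within 2-fold. Because all candidates share the same 4 libraries, it is a description. Closest to Cd48 among 1038 candidates were Crim1, a membrane regulator of BMP signals (distance 0.145), Tchh (0.322) and Tmlhe, an enzyme of carnitine synthesis (0.343). Crim1 had 0.136 and 0.174 CPM in MLL-ENL dYEATS, against 4.25 and 6.75 CPM in MLL-ENL. Closest to Cd84 among 2950 candidates were Msl3l2 (0.156), Zc3h7b (0.180) and Hip1, a clathrin adaptor (0.193). Cd84 lay at 1.02 from Cd48, and 80 of the 1038 candidates were closer. Cd84 is itself outside that range of level, so this distance compares genes of unlike levels. Ly9 lay at 0.577 from Cd84, with 28 of the 2950 candidates closer.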

How the data were processed

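Poly(A)-selected RNA was sequenced in 4 libraries, 2 per group, grouped by sample title. The submitters' processing notes name RSEM 1.3.3, STAR 2.7.8a, cutadapt 2.3 and FastQC 0.11.8, with the build GRCm38. The strand setting and annotation release were not given in the sources used here. The authors deposited RSEM expected counts per gene (whole numbers as deposited, here rounded to whole numbers as a safeguard) and FPKM, scaled by the authors for gene length and library size. Reads carry no stated molecular identifiers, so floors (3 counts) and 95% intervals reflect counting error alone.

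Counts were filtered with filterByExpr (13245 of 55426 genes left), scaled by TMM and tested with edgeR 4.0.16 (glmQLFit with legacy set, glmQLFTest, R 4.3.3), with Benjamini-Hochberg adjustment over all tested genes and calls at an adjusted p under 0.05. SE is the log2 fold change divided by the square root of F. Positions came from GENCODE M21 (55154 IDs matched). The alternatives were other scalings and filters, DESeq2 1.42.0, voom and limma 3.58.1 on log2 FPKM with a pseudocount of 1 or 0.1, a replicate block and each library left out. The SLAM genes and all gene lists were chosen with earlier results of these data known. Genes are named by rule: the SLAM genes, Cd244a and Cd2, the adapters, up to 6 called genes per signalling list, the nearest and the called neighbours, up to 6 progenitor markers, and the 3 genes with the pattern closest to Cd48 and to Cd84. Ptpn6, Ptpn11, Inpp5d, Tagln2, Gm37125, Itgax, H2-Ab1, Ccr2, Elane, Cebpe, Itgam, Tyrobp, Cd34, Ly6a and Flt3 were named after their values were seen. The markers of dendritic, erythroid, megakaryocyte and mast cells were also summed.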

Additional observations from a re-analysis of the deposited data

How the results depend on the processing

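The 2 libraries of a group, and the wide spread of the MLL-ENL pair, limit every call, and a gene at a few counts (Cd48, Fyn, Gm10521, Nectin4) has a fold change that rests on those counts. Cd48, Fyn, Gm10521, Nectin4, Ifi206, Itgax and H2-Ab1 passed the filter only through the group where they were high. The log2 fold changes of the 4 measured SLAM genes kept their sign under every alternative that gave a value, with ranges of -6.79 to -2.40 for Cd48, -2.38 to -1.71 for Cd84, -1.69 to -1.31 for Ly9 and -0.72 to -0.25 for Slamf9. Cd48 was at -4.84 with FPKM plus 0.1 and at -2.40 with FPKM plus 1, and the minimum of 5 CPM gave no value for Cd48 or Slamf9. Genes called numbered 2235, against 1466 with limma on log2(FPKM + 1), 674 with the same and no filter, 1350 at a minimum of 5 CPM, and 1434 to 9089 with 1 library left out. Of the 18 tested adapter and signalling genes 4 were called, whereas limma on log2(FPKM + 0.1) and on log2(FPKM + 1) each called 1 and log2(FPKM + 1) without a filter called 0, and leaving out 1 library gave 3 to 15 of the 18. SLAMF7 partners called numbered 0 to 5 with 1 library left out, against 0. Near the SLAM loci 4 genes were called, against 2 with limma on log2(FPKM + 1), 1 of these without a filter, 1 at the minimum of 5 CPM, 8 within 1000 kb, and 4 to 24 with 1 library left out. Of the 5 tested progenitor markers 4 were called, whereas limma called 2 with a pseudocount of 0.1 and 1 with a pseudocount of 1, with or without a filter, and leaving out 1 library gave 1 to 5 of the 5. Cd244a (-0.22) was at 0.0021 without MLL-ENL replicate 2 and at -0.40 without MLL-ENL replicate 1, and Ncstn (-0.21) at 0.27 and -0.58 in the same fits. With library totals as the scaling, Pik3c3 and Fcgr2b had adjusted p of 0.0718 and 0.0762 by edgeR, and with no filter Pik3c3 had 0.0571. The sample titles give replicate numbers and do not say whether same-numbered libraries were handled together. Deviations of same-numbered libraries correlated at -0.04, and with 2 pairs this cannot decide the question. With the replicate number as a block 3133 genes were called, 7 near the SLAM loci (Dusp23 among them) and 1 SLAMF7 partner. The cause of these shifts was not tested.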

Other observations

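In a wider window of 1000 kb around the SLAM family genes 45 genes were tested, and 3 were higher and 5 lower (17.8% called, beside 16.9% of all tested genes, edgeR's quasi-likelihood test). The genes named here were chosen after their values were seen. Olfml2b, an extracellular matrix gene, rose to 115 and 117 CPM in MLL-ENL dYEATS, against 15.8 and 22.7 CPM in MLL-ENL (log2 fold change 2.59 ± 0.20 SE, edgeR adjusted p = 0.0013). Nos1ap, an adaptor of nitric oxide synthase, fell to 2.69 and 2.34 CPM, against 7.43 and 14.7 CPM in MLL-ENL (-2.14 ± 0.37 SE, edgeR adjusted p = 0.0168). The interferon-inducible gene Ifi206 fell to 0.136 and 0.0349 CPM, against 0.821 and 0.888 CPM in MLL-ENL (edgeR adjusted p = 0.014), at the level of few counts.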
